A study of Mus musculus with 6 samples.

Results

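Imprinted genes are transcribed mainly or only from the copy inherited from the mother, or from that inherited from the father. Most lie in clusters controlled by a DNA stretch that is methylated on 1 parental chromosome. Within a cluster, a noncoding RNA often keeps coding genes silent on the same chromosome that it is transcribed from. In the developing brain and in fetal tissues generally they are known for control of growth, cell cycle exit and neuronal maturation. Here 38 imprinted genes were listed by name, and 33 of them, from 16 loci, were analysed among 17068 genes. Of the 33, 16 are known as paternally expressed in the mouse and 14 as maternally expressed, in some only in certain tissues. For the other 3 (Grb10, Gnas and Blcap) the expressed copy depends on tissue or transcript. Igf2, Phlda2, Slc22a18, Mkrn3 and Peg13 were not analysed here, so the H19/Igf2 locus is described by H19 alone. The list was proposed with earlier results of these data known, and its rule used gene names and the authors' minimum on read counts. The member nearest that minimum was Kcnk9, with 41 counts in its lowest library.

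RNA from the lateral cortex of 6 female E12.5 embryos, labelled c57/bl6, was sequenced in bulk. The 4 controls carried no Cre, with the genotype Foxp1 fl/+ in controls 1, 2 and 4 and Foxp1 fl/fl in control 3, so every embryo carried a floxed Foxp1 allele. The other 2 were Foxp1 fl/fl;Emx1Cre, labelled Foxp1cKO. Emx1Cre acts in progenitors of the dorsal telencephalon and their descendants, whereas vessels, meninges and blood keep Foxp1, and no control carried Cre alone. Nothing in the labels ties libraries to litters, and the p-values measure only the spread between these libraries. The counts sum the maternal and paternal copies, so which copy was transcribed was not measured, and in tissue RNA fewer cells of a type and less RNA per cell cannot be told apart.

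Reads counted on genes summed to 50076008 to 78346979 a library, and levels are given as CPM, the gene's count relative to that total after scaling by edgeR's TMM method. Foxp1 had 59.7, 60.8, 71.2 and 79.1 CPM in controls 1 to 4, against 83.2 and 76.8 CPM in Foxp1cKO-labelled libraries 1 and 2. It was thus not lower there, although a count over the whole gene also covers exons outside the floxed part, and groups are named by their labels throughout. All 5 markers of intermediate progenitors of the cortex were present and summed to 636 to 864 CPM in the controls and to 608 and 693 CPM in the Foxp1cKO-labelled libraries. Of the radial glia and neuron markers, Sox2 and Tubb3 were not analysed here.

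Several members are hosts of microRNAs, small RNAs that repress transcripts matching their seed (bases 2 to 8). By position and strand in RefSeq (GRCm38.p6), 41 mature microRNAs lie within 6 of the analysed genes, 26 of them in Mirg. The mature forms were not measured by this assay. Those of H19 and Mest are shown because both hosts were higher in the Foxp1cKO-labelled libraries than in every control, and a few of the Dlk1/Meg3 locus because their hosts followed a common pattern over the libraries. Of the 3 in Meg3, 6 in Rian and 26 in Mirg, 5 are printed as examples with no rule of choice, other than that the only pair with a shared seed is among them. Seeds are in capitals, 5′ to 3′.
miR-675-5p (H19): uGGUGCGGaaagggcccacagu
miR-675-3p (H19): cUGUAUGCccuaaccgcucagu
miR-335-5p (Mest): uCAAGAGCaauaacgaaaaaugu
miR-335-3p (Mest): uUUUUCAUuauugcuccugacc
miR-770-5p (Meg3): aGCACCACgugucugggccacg
miR-370-3p (Rian): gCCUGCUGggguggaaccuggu
miR-134-5p (Mirg): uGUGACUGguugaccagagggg
miR-453 (Mirg): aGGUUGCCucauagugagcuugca
miR-496a-5p (Mirg): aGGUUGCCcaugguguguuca
The shared seed is that of the last pair, miR-453 and miR-496a-5p.

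Promoters of imprinted genes often coincide with the methylated control region. Windows from 250 bases before to 50 after a RefSeq start (GRCm38.p6) were available for 25 of the 33 genes, 37 windows in all. TGCCGC, on either strand the letters bound by ZFP57 when methylated, was in 9 of the 37 windows (24.3%) and in 11.6% of all 32851 windows. Windows of the same gene can overlap, so a match can count more than once. By gene, TGCCGC was in 8 of 25 members and in 3527 of all 27025 genes with a window. The members' windows also held more CpG, with a median of 12 against 7. ACGTG, the core of the HIF response element, was in 24.3% of the members' windows and 19.6% of all. By gene, it was in 7 of 25 members and in 5886 of 27025. TGTTTAC, a forkhead motif, was in 2.70% and 3.65%, among the members in Dlk1 alone. The motifs were searched on both strands, and matches describe the letters only. For Mest, the member with the second highest level, the window from 30737800 held 2 matches to TGCCGC, shown in capitals. A Mest window from 30737803 covers nearly the same bases and matches, and one from 30733256 held 0.
Mest, chr6:30737800-30738099, plus strand: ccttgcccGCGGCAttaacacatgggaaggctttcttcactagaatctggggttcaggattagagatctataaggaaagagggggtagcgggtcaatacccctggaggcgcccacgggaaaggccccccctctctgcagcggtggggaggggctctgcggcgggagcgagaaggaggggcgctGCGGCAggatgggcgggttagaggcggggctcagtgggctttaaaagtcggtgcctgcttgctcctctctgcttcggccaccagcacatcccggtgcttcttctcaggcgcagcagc
The window of Kcnq1ot1 is shown with its 2 matches to ACGTG in capitals, both on the other strand.
Kcnq1ot1, chr7:143296498-143296797, minus strand: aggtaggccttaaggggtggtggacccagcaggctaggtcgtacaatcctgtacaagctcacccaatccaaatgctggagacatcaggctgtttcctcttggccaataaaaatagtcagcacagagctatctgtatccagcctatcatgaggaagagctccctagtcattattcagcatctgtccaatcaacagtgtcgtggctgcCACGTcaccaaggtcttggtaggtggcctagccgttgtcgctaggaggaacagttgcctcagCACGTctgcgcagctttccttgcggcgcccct

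Imprinted transcripts were among the most abundant in the E12.5 cortex, and also among the scarcest. Per length of exon, Nnat, which encodes the small membrane protein neuronatin, stood first of the 33 with 647 ± 132 CPM per kb in the controls (SD, n = 4), above 99.9% of all genes. Mest, an alpha/beta hydrolase family gene of mesoderm and brain, followed with 83.3 ± 14.1 CPM per kb. Grb10, an adaptor that damps insulin and IGF receptor signalling, had 76.1 ± 15.8, Gnas, the gene of the stimulatory G protein alpha subunit, 69.9 ± 6.03, and Plagl1, a zinc finger transcription factor, 56.3 ± 13.7 CPM per kb. Mest, Grb10, Gnas and Plagl1 were within their spread of their neighbours in this order, and only Nnat stood clear of the next gene. At the lower end were Kcnk9, a potassium channel gene, with 0.124 ± 0.0824 CPM per kb, and Kcnq1ot1 with 0.303 ± 0.0547, although the annotation gives Kcnq1ot1 1 exon spanning its whole length. Dcn, the matrix proteoglycan decorin, had 1.99 ± 1.45 CPM per kb, and Dlk1, a membrane ligand of the Notch type, 2.39 ± 1.33. The level of Snrpn, 3.11 ± 0.938 CPM per kb, is uncertain, since 27.3% of its exon length is shared on the same strand with Snurf and Gm38393, and HTSeq's union mode leaves out reads that fall on several genes.

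**Figure D1:**
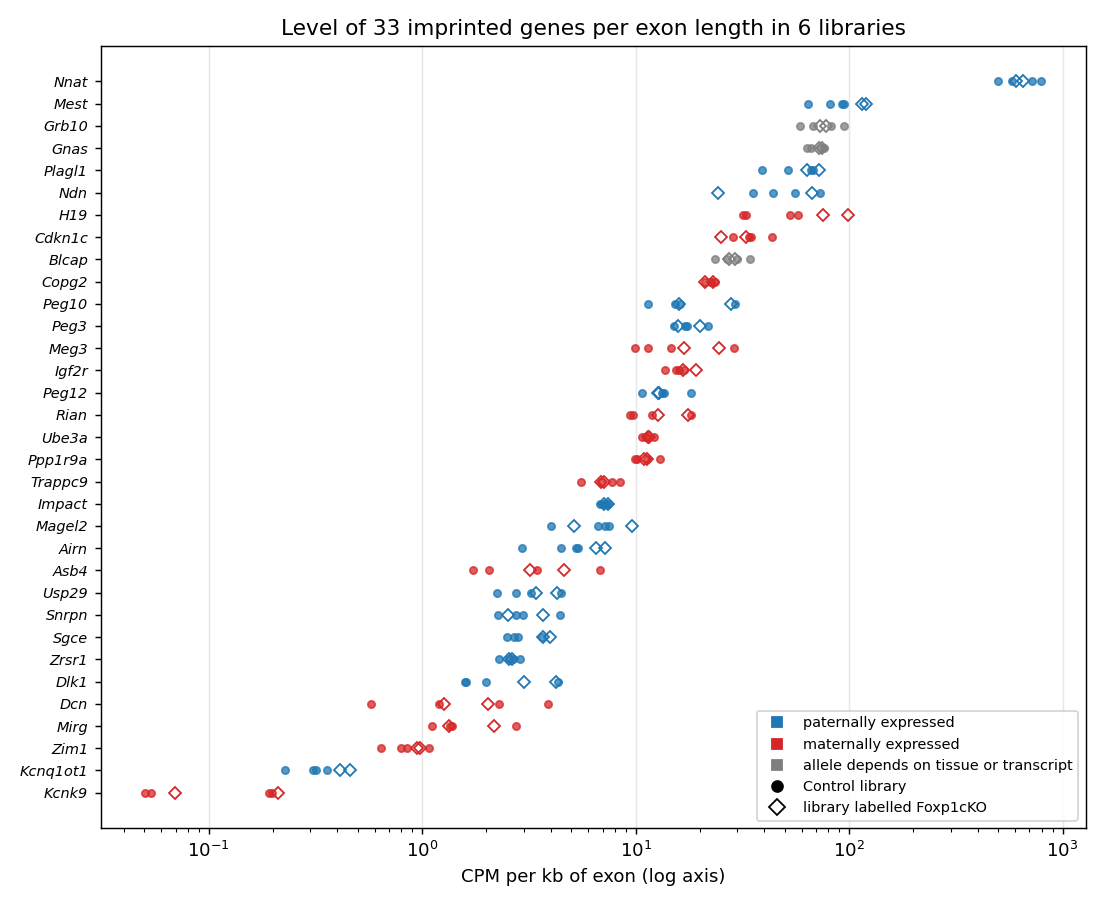
Level of each of the 33 analysed imprinted genes in CPM per kb of exon (log axis), with filled circles for the 4 control libraries, open diamonds for the 2 libraries labelled Foxp1cKO, and colour for the expressed parental copy. Nnat lies clear to the right of all others and Kcnk9 at the far left, and the highest maternally expressed gene, H19, stands seventh, below paternally expressed genes and genes whose expressed copy varies.

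No imprinted gene passed the threshold on the adjusted p-value (under 0.05, edgeR's quasi-likelihood test, adjustment over all 17068 genes). The count was 0 of 33, where 0.152% of all genes passed, 5 of the 33 had an unadjusted p-value under 0.05, DESeq2 called H19 alone (2.77% of all genes) and limma called 0 (0.158% of all genes). The 5 were H19, Airn, Kcnq1ot1, Mest and Sgce, or 15.2% of the members. Each of the 5 had its higher level in the Foxp1cKO-labelled libraries, and 0 members with such a p-value were lower. Of all 17068 genes, 1115 (6.53%) had such a p-value and were higher, and 1109 (6.50%) had such a p-value and were lower. Over all genes the 2 directions were thus about equally frequent. The same 5 were the members whose groups did not overlap in CPM, again 15.2% against 11.5% of all genes with both libraries labelled Foxp1cKO above every control. No member had both libraries below every control, whereas 13.1% of all genes did. Of the 33, 23 had a positive and 10 a negative log2 fold change, with a median of 0.094 against -0.0044 for all genes. Of all genes, 8407 were positive and 8661 negative. As a log2 CPM difference from the control mean, the median member lay at -0.076, -0.014, 0.25 and -0.071 in controls 1 to 4. In Foxp1cKO-labelled libraries 1 and 2 it lay at 0.29 and 0.055, so the groups overlapped. The number with an unadjusted p-value under 0.05 fell to 1, H19, without the library labelled Foxp1cKO 1 (5.51% of all genes) and to 2, Kcnq1ot1 and the lower Ndn, without the library labelled Foxp1cKO 2 (8.88% of all genes), and was 10 without control 3 (17.6% of all genes).

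The paternally expressed genes had a median log2 fold change of 0.24, with 12 of 16 positive. The maternally expressed genes had a median of 0.12, with 10 of 14 positive. Without those known as maternally expressed only in certain tissues, the median was 0.20, with 7 of 8 positive. Relative to the control mean, the median paternally expressed gene lay at -0.034, -0.048, 0.29 and -0.085 in controls 1 to 4 (log2 CPM difference) and at 0.43 and 0.10 in Foxp1cKO-labelled libraries 1 and 2. The median maternally expressed gene lay at -0.080, -0.0036, 0.24 and -0.094 in the controls and at 0.27 and 0.062 in those libraries. Both classes were thus highest in the library labelled Foxp1cKO 1 and in control 3, and the groups overlapped in each. Of the 5 genes listed above, Airn, Kcnq1ot1, Mest and Sgce are paternally expressed and H19 maternally, and whether the classes differ was not tested.

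**Figure D2:**
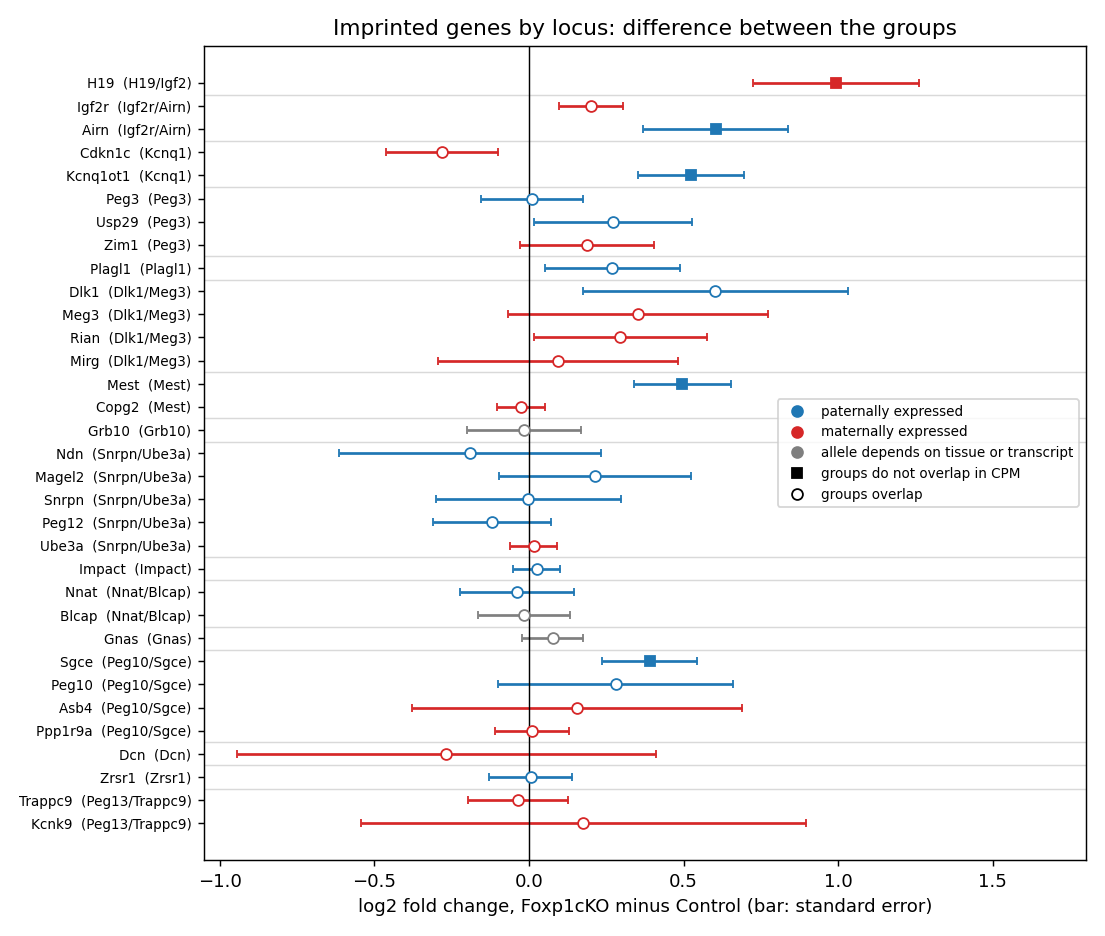
Log2 fold change of the 33 imprinted genes, Foxp1cKO-labelled libraries over controls, grouped by locus, with bars for the standard error and colour for the expressed parental copy. Filled squares mark H19, Airn, Kcnq1ot1, Mest and Sgce, whose groups did not overlap in CPM, and Cdkn1c at -0.28 is the lowest point.

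H19 is a long noncoding RNA of the maternal chromosome that shares enhancers with the paternally expressed growth factor gene Igf2. H19 (ENSMUSG00000000031.16, chromosome 7, 142575529 to 142578143) stood at 131, 80.6, 78.4 and 142 CPM in controls 1 to 4 and 186 and 243 CPM in Foxp1cKO-labelled libraries 1 and 2. Controls 1 and 4 stood above controls 2 and 3, and both libraries labelled Foxp1cKO stood above all of them. The log2 fold change of 0.99 (standard error 0.267) was the largest of any member (edgeR, adjusted p = 0.264). H19 is abundant in mesenchyme and vessels, and markers of such cells also differed between libraries. All 6 pericyte markers were analysed and summed to 194 to 228 CPM in the controls and 283 and 288 CPM in the Foxp1cKO-labelled libraries. The 8 endothelial markers summed to 139 to 214 CPM and to 197 and 243 CPM, and the 8 red cell markers to 1090 to 3429 and to 3760 and 4021 CPM. The 11 of 12 meninges and mesenchyme markers analysed summed to 111 to 594 CPM in the controls and 166 and 364 CPM in the Foxp1cKO-labelled libraries, so they did not separate the groups. None of these markers was at 0 in any library, and their part in the H19 difference was not tested.

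Airn is the paternal noncoding RNA that runs across Igf2r on the other strand and silences it on that chromosome. Airn (ENSMUSG00000078247.3, chromosome 17, 12741311 to 12860136) stood at 19.4, 10.6, 16.1 and 18.9 CPM in controls 1 to 4, and 26.0 and 23.4 CPM in the Foxp1cKO-labelled libraries. Control 2 was the lowest, and both libraries labelled Foxp1cKO were above all 4. Its log2 fold change was 0.60 (standard error 0.233, edgeR, adjusted p = 0.356). Igf2r, the receptor that clears IGF2, had 145 ± 12.3 CPM (SD, n = 4 controls) and 167 ± 15.8 CPM (SD, n = 2 labelled Foxp1cKO). The log2 ratio of Igf2r to Airn counts was 3.03, 3.82, 3.00 and 2.94 in the controls and 2.78 and 2.73 in the Foxp1cKO-labelled libraries. The groups did not overlap, by a mean difference of -0.44 that fell to -0.23 without control 2. The exact two-sided permutation p-value was 0.133 (0.356 after Benjamini-Hochberg adjustment over 8 pairs of genes), and 0.133 is the smallest that 4 libraries against 2 allow.

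In the Kcnq1 locus, the paternal noncoding RNA and its coding neighbour went opposite ways in value. Kcnq1ot1 (ENSMUSG00000101609.2, chromosome 7, 143203458 to 143296549), which silences Cdkn1c on the paternal chromosome, had 28.6, 21.2, 29.7 and 33.3 CPM in the controls and 42.8 and 38.2 CPM in the Foxp1cKO-labelled libraries. Its log2 fold change was 0.52 (standard error 0.171, edgeR, adjusted p = 0.302). Cdkn1c (ENSMUSG00000037664.13), the cell cycle inhibitor p57, had 89.3, 71.2, 58.4 and 69.1 CPM in the controls and 51.5 and 66.9 CPM in the Foxp1cKO-labelled libraries. The library labelled Foxp1cKO 1 was the lowest of the 6, but the other lay among the controls, and the log2 fold change of -0.28 (standard error 0.182) was within the overlap of the groups (edgeR, adjusted p = 0.537). It stood at -0.11 without the library labelled Foxp1cKO 1 and at -0.50 without the library labelled Foxp1cKO 2. The log2 ratio of Cdkn1c to Kcnq1ot1 counts was 1.64, 1.75, 0.98 and 1.05 in controls 1 to 4, against 0.26 and 0.81 in the Foxp1cKO-labelled libraries. That ratio was lower in both than in every control, by -0.82 on average (exact two-sided permutation p = 0.133, the smallest possible, 0.356 adjusted over the 8 pairs). Of its exon length, 30.7% of Cdkn1c is overlapped on the other strand by Gm44732, and the strand setting of the counting is not given in the sources used here.

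Mest and Sgce were the coding genes with groups that did not overlap. Mest (ENSMUSG00000051855.15, chromosome 6, 30723547 to 30748465) had 252, 375, 323 and 364 CPM in the controls and 472 and 455 CPM in the Foxp1cKO-labelled libraries. The 2 latter lay close together, well above control 2, the highest control. Its log2 fold change was 0.50 (standard error 0.155, edgeR, adjusted p = 0.292). Copg2, a coatomer gene whose last exon overlaps that of Mest tail to tail, had 115 ± 4.90 CPM (SD, n = 4 controls) and 113 ± 7.45 CPM (SD, n = 2 labelled Foxp1cKO). The overlap takes 23.1% of the Mest and 17.8% of the Copg2 exon length, a limit if strand was not used in the counting. The log2 ratio of Copg2 to Mest counts was -1.22, -1.69, -1.48 and -1.60 in the controls and -2.13 and -1.94 in the Foxp1cKO-labelled libraries, which did not overlap (exact two-sided permutation p = 0.133, 0.356 adjusted over the 8 pairs). Sgce (ENSMUSG00000004631.15), which encodes epsilon-sarcoglycan, had 26.6, 29.8, 38.8 and 28.6 CPM in the controls and 42.1 and 39.0 CPM in the Foxp1cKO-labelled libraries. Control 3, the only Foxp1 fl/fl control, came within 1 CPM of the lower of them and stood above every fl/+ control. For Sgce, the floxed genotype and the Cre label therefore cannot be told apart. The log2 fold change of Sgce was 0.39 (standard error 0.153, edgeR, adjusted p = 0.364).

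**Figure D3:**
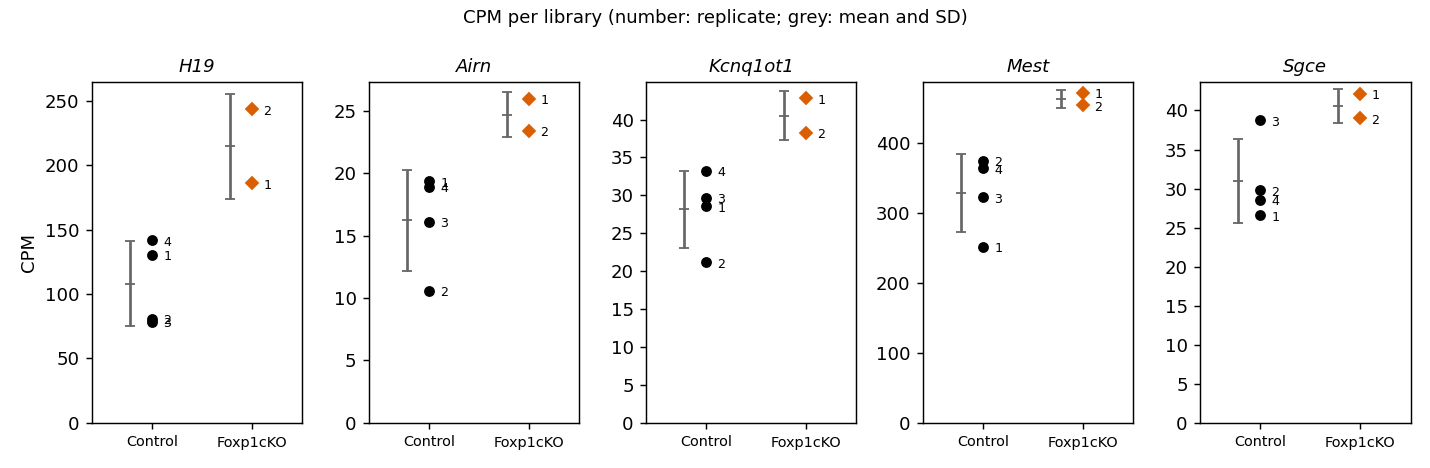
CPM per library of H19, Airn, Kcnq1ot1, Mest and Sgce, on axes from 0, with black circles for the 4 controls, orange diamonds for the 2 libraries labelled Foxp1cKO, replicate numbers beside them, and the mean and SD in grey. In each panel both diamonds lie above every circle, by the narrowest margin in Sgce, where control 3 had 38.8 CPM.

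The Dlk1/Meg3 locus varied more among the controls than between the groups. It produces Dlk1 from the paternal chromosome and the noncoding RNAs Meg3, Rian and Mirg from the maternal. Meg3 had 207, 266, 522 and 179 CPM in controls 1 to 4 and 444 and 306 CPM in Foxp1cKO-labelled libraries 1 and 2. Rian, host of small nucleolar RNAs, had 172, 218, 331 and 177 CPM in the controls and 320 and 231 CPM in those libraries. Mirg had 9.85, 10.1, 20.0 and 8.13 CPM, and 15.9 and 9.77 CPM. Dlk1 had 8.99, 9.06, 24.6 and 11.3 CPM, and 24.1 and 16.9 CPM. Maternal and paternal transcripts of the locus therefore shared a pattern, highest in control 3 and next in the library labelled Foxp1cKO 1. Control 3 was the only Foxp1 fl/fl control, a floxed genotype it shared with both Foxp1cKO-labelled embryos. Dlk1, Meg3 and Rian were higher in each fl/fl library, with or without Cre, than in every fl/+ control, whereas Mirg was not. With a single fl/fl control, floxed genotype, unlabelled litter and other differences of that embryo cannot be told apart. Log2 fold changes were 0.60 for Dlk1 (standard error 0.428), 0.35 for Meg3 (0.420), 0.30 for Rian (0.279) and 0.094 for Mirg (0.387), with edgeR adjusted p-values of 0.576, 0.754, 0.682 and 0.941. Without control 3, Dlk1 stood at 1.05 and Meg3 at 0.77, and without the library labelled Foxp1cKO 1, Meg3 stood at 0.061, Rian at 0.044 and Mirg at -0.30. The log2 ratio of Meg3 to Dlk1 counts was 4.52, 4.88, 4.41 and 3.99 in the controls and 4.20 and 4.18 in the Foxp1cKO-labelled libraries, within the range of the controls (exact two-sided permutation p = 0.4).

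Control 3 was more often the highest library, and control 4 more often the lowest, for members than for all genes. Control 3 was the highest library for 15 of the 33 members (45.5%, against 21.2% of all genes), which took in the 4 genes of the Dlk1/Meg3 locus, Peg3, Usp29 and Zim1 of the Peg3 locus, Peg10, Asb4 and Ppp1r9a of the Peg10/Sgce locus, Nnat with Blcap, Ndn, Snrpn and Trappc9. Control 4 was the lowest for 14 members (42.4%, against 20.8% of all genes). At the other ends, control 3 was the lowest for 21.2% of members and 22.3% of all genes. Control 4 was the highest for 15.2% of members and 24.5% of all genes. The highest control was a median of 1.68 times the lowest over the 33 members, against 1.28 times over the 13212 genes with a mean of at least 100 counts. The spread was widest for Dcn, at 6.78 times. The 9 ventral telencephalon markers, all analysed, summed to 845 CPM in control 3 and to 235 to 363 CPM in the other controls, and to 529 and 392 CPM in Foxp1cKO-labelled libraries 1 and 2. The 6 of 7 neuron markers analysed summed to 4403 CPM in control 3, the highest, and to 2400 CPM in control 4, the lowest, with 3371 and 3967 CPM in controls 1 and 2. In Foxp1cKO-labelled libraries 1 and 2 they summed to 3138 and 3230 CPM, so the neuron markers were not high in the library labelled Foxp1cKO 1. None of these markers was at 0 in any library, and their part in the spread of the imprinted genes was not tested. Without control 3, 10 members had an unadjusted p-value under 0.05, 9 of them higher (H19, Kcnq1ot1, Usp29, Dlk1, Meg3, Rian, Mest, Sgce and Peg10) and Cdkn1c lower, at a background of 17.6% of all genes, and 0 passed the adjusted threshold.

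**Figure D4:**
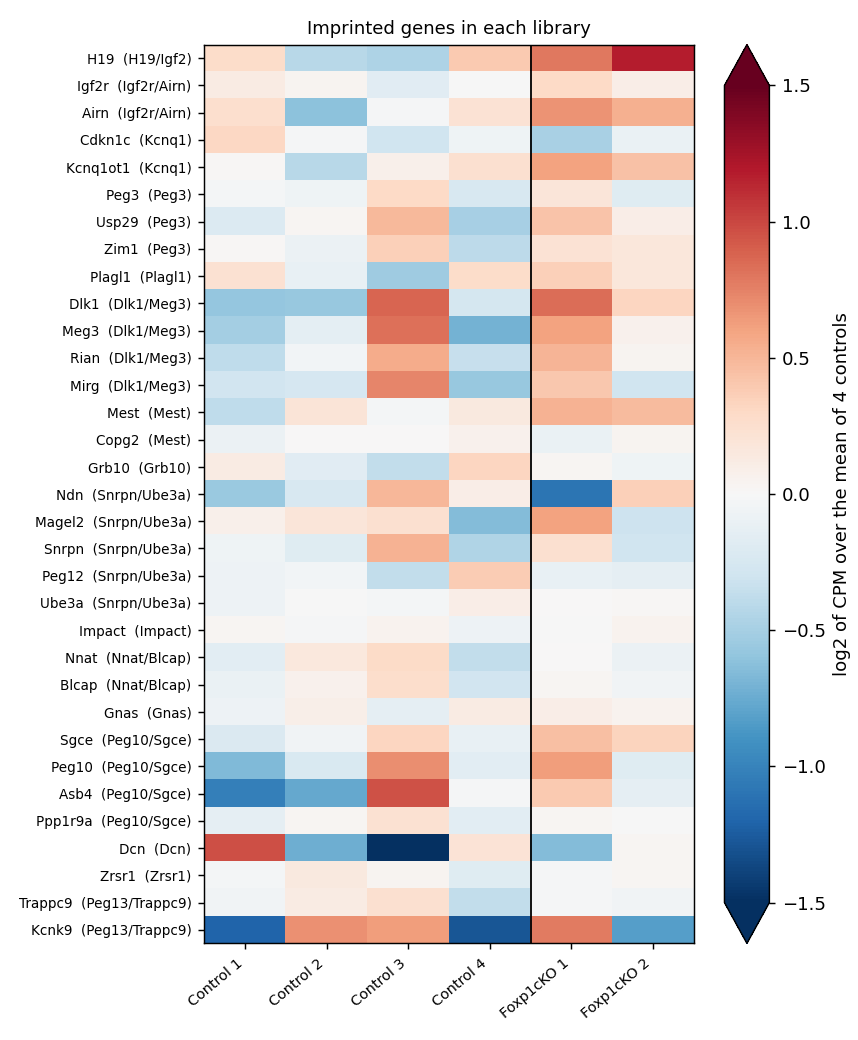
Log2 of each library's CPM over the mean of the 4 controls for the 33 imprinted genes, grouped by locus, with red above and blue below that mean and colour saturated beyond 1.5. Control 3 and the library labelled Foxp1cKO 1 are red together over Dlk1, Meg3, Rian, Mirg and Peg10, while Dcn and Plagl1 are blue in control 3.

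Among the controls, Dcn had the order of the meninges and mesenchyme markers. It had 22.7, 7.02, 3.35 and 13.4 CPM in controls 1 to 4, where the 11 markers analysed summed to 594, 187, 111 and 385 CPM. In Foxp1cKO-labelled libraries 1 and 2 Dcn had 7.39 and 11.9 CPM, and the markers summed to 166 and 364 CPM, so the order did not hold over all 6, since the library labelled Foxp1cKO 1 was above control 2 for Dcn and below it for the markers. Plagl1 (ENSMUSG00000019817.18), which promotes cell cycle arrest, had 518, 407, 304 and 532 CPM in the controls and 566 and 496 CPM in the Foxp1cKO-labelled libraries. Its log2 fold change was 0.27 (standard error 0.219, edgeR, adjusted p = 0.627), and 0.12 without control 3. Grb10 had 752, 615, 538 and 861 CPM in the controls, highest in control 4 and lowest in control 3, and 708 and 661 CPM in the Foxp1cKO-labelled libraries. The log2 fold change of Grb10 was -0.015 (standard error 0.184, edgeR, adjusted p = 0.981). Gnas had 740, 829, 711 and 849 CPM in the controls and 840 and 811 CPM in the Foxp1cKO-labelled libraries, a log2 fold change of 0.078 (standard error 0.0984, edgeR, adjusted p = 0.773) that was 0.020 without control 3.

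Nnat lies within an intron of Blcap and is paternally expressed. Nnat had 1057, 1316, 1446 and 913 CPM in the controls and 1191 and 1112 CPM in the Foxp1cKO-labelled libraries, with a log2 fold change of -0.038 (standard error 0.185, edgeR, adjusted p = 0.952). Blcap had 81.3, 90.8, 105 and 71.5 CPM in the controls and 88.6 and 83.6 CPM in the Foxp1cKO-labelled libraries. Both were highest in control 3 and lowest in control 4, and their log2 count ratio had the smallest control SD of the 8 pairs, 0.0837, with a mean of -3.76 in the controls and -3.74 in the Foxp1cKO-labelled libraries. The exact two-sided permutation p-value of that difference was 0.933, and a p-value that misses the threshold does not show that the ratios were alike.

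In the Snrpn/Ube3a locus, Ube3a, a ubiquitin ligase expressed from the maternal copy in neurons, had 234 ± 12.4 CPM (SD, n = 4 controls) and 237 ± 1.92 CPM (SD, n = 2 labelled Foxp1cKO). Other genes, among them Snhg14, overlap 27.3% of the Ube3a exon length on the other strand. The Ube3a level is therefore uncertain if strand was not used in the counting. Ndn, a MAGE family gene that promotes neuronal differentiation, had 131, 162, 270 and 205 CPM in controls 1 to 4, but 89.8 CPM in the library labelled Foxp1cKO 1, the lowest of the 6, and 247 CPM in the other. Magel2, its close neighbour and relative, was instead highest in the library labelled Foxp1cKO 1, with 44.5 CPM, and had 23.8 CPM in the other and 30.9, 33.5, 34.6 and 18.7 CPM in the controls. The per-library values of Ndn, Magel2, Blcap and Dcn were chosen for description after they were seen. Snrpn had 6.71 ± 2.03 CPM and Peg12 36.7 ± 8.15 CPM in the controls (SD, n = 4), against 6.71 ± 1.75 and 33.8 ± 0.411 CPM in the Foxp1cKO-labelled libraries (SD, n = 2). The Ube3a to Snrpn ratio did not separate the groups, with log2 means of 5.17 and 5.16.

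The other members differed little from library to library or did not separate the groups. Impact, a translation regulator, had 36.6 ± 1.40 CPM (SD, n = 4 controls) and 37.2 ± 1.10 CPM (SD, n = 2 labelled Foxp1cKO). Peg3, a zinc finger gene, had 237 ± 38.0 and 239 ± 41.5 CPM, Usp29 57.4 ± 17.1 and 69.3 ± 11.1 CPM, and Zim1 6.81 ± 1.47 and 7.77 ± 0.172 CPM. The log2 ratio of Zim1 to Peg3 overlapped between the groups. Peg10, derived from a retrotransposon, had 120 ± 51.5 and 146 ± 56.4 CPM, and its neighbours Asb4 and Ppp1r9a 13.8 ± 9.11 and 15.4 ± 3.95 CPM, and 161 ± 20.2 and 162 ± 3.28 CPM. The log2 ratio of Asb4 to Peg10 overlapped as well. Zrsr1 had 11.6 ± 1.10 and 11.7 ± 0.254 CPM, Trappc9 56.8 ± 9.88 and 55.5 ± 1.22 CPM, and Kcnk9 1.52 ± 1.01 and 1.73 ± 1.24 CPM.

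**Figure D5:**
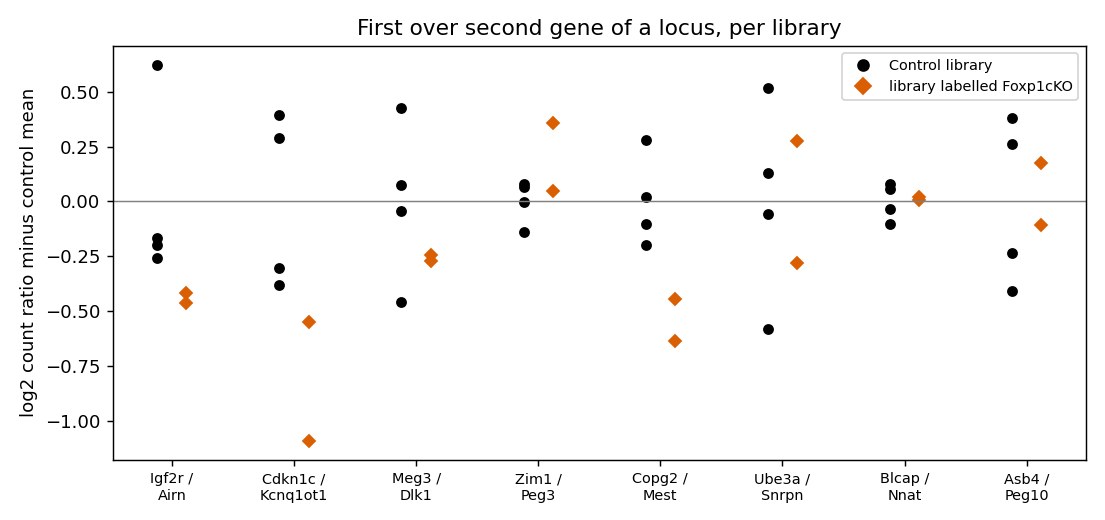
Log2 ratio of the counts of the first to the second gene of 8 pairs from the same locus, each minus its control mean, with black circles for the 4 control libraries and orange diamonds for the 2 libraries labelled Foxp1cKO. The diamonds lie below every circle for Igf2r to Airn, Cdkn1c to Kcnq1ot1 and Copg2 to Mest, and among or across the circles for the other 5 pairs. Airn, Kcnq1ot1 and Mest were themselves above every control in both libraries labelled Foxp1cKO, so these ratios are not independent of the single-gene values.

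Beyond the 38, 39 other imprinted genes were listed, of which 30 were analysed, and 0 passed the adjusted threshold in edgeR. Of these, 7 had an unadjusted p-value under 0.05 (23.3%), 4 with higher values (13.3%, against 6.53% of all genes) and 3 with lower (against 6.50% of all genes), while DESeq2 called Kcnq1 and Tssc4 and limma called 0. Of the 7, 3 belong to the Kcnq1 locus. Kcnq1, a potassium channel gene, had 0.885 to 1.16 CPM in the controls and 2.07 and 1.83 CPM in the Foxp1cKO-labelled libraries, with a log2 fold change of 0.91 (standard error 0.226, edgeR, adjusted p = 0.242). Kcnq1ot1 starts within Kcnq1 on the other strand, so reads of the 2 could be mixed if strand was not used in the counting. Tssc4 had 35.3 to 39.1 CPM in the controls and 27.0 and 30.3 CPM in the Foxp1cKO-labelled libraries, with a log2 fold change of -0.37 (standard error 0.0890, edgeR, adjusted p = 0.242). Nap1l4, a histone chaperone, was at -0.21 on the log2 scale (standard error 0.0789, edgeR, adjusted p = 0.343). Zdbf2, Sfmbt2 and Ago2 had log2 fold changes of 0.51, 0.71 and 0.24, and Commd1, within which Zrsr1 lies, of -1.08 (standard error 0.379, edgeR, adjusted p = 0.328). Commd1 was scarce, with 20 to 105 counts a library, and did not pass the filter of 1 CPM in 2 libraries. It had 0.955 ± 0.304 CPM (SD, n = 4 controls) and 0.449 ± 0.0732 CPM (SD, n = 2 labelled Foxp1cKO). Of 18 genes that set or keep imprints, 16 were analysed, among them Zfp57, Trim28, Dnmt1 and Ctcf, and 0 passed the adjusted threshold in edgeR, DESeq2 or limma. Tet3, an oxidase of methylated cytosine, alone had an unadjusted p-value under 0.05 (6.25% of the 16, against 6.53% of all genes higher), with 255 to 284 CPM in the controls, 337 and 308 CPM in the Foxp1cKO-labelled libraries and a log2 fold change of 0.26 (standard error 0.0809, edgeR, adjusted p = 0.289).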

How the data were processed

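RNA from 6 E12.5 lateral cortex samples was made into stranded libraries, and the authors mapped paired-end reads to mm10 with STAR and counted them per gene with HTSeq (version 0.9.1) in union mode, removing genes with low counts. The authors deposited whole, unnormalized counts for 17068 genes, and VST values on a log2-like scale, which the authors made with DESeq2 (version 1.30.1). Groups were taken from the sample titles. The litter in the authors' model was not used here.

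Counts were tested in R 4.3.3 with edgeR 4.0.16 (quasi-likelihood test, TMM, group alone, Benjamini-Hochberg adjustment over all genes, threshold 0.05) and checked on simulated data. Alternatives were DESeq2 1.42.0, limma 3.58.1 on the VST values, other scalings, a filter of 1 CPM in 2 libraries, each library left out and the replicate number as a block. Ratios were compared by exact permutation tests. A floor of 3 counts is 0.0383 to 0.0599 CPM and covers counting error only. Replicates of a group differed beyond counting error, by 25.9 to 193 chi-square units per gene.

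Positions, symbols and exon lengths came from GENCODE M21 (GRCm38, the mm10 assembly), matched to 17047 gene identifiers, another release than the authors'. The members and lists were chosen with earlier results of these data known. Values in every library and tests are given for members with an unadjusted p-value under 0.05, with groups that do not overlap, among the 5 highest per length, or in the H19/Igf2, Dlk1/Meg3 or Kcnq1 loci, and other listed genes are named with values where the unadjusted p-value was under 0.05. Ratios of H19 to Igf2 and of Kcnk9 to Peg13 were planned and not analysed here. The markers of cortical identity are not reported here.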

Additional observations from a re-analysis of the deposited data

Results flagged for a closer look

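Each of 42 genes was screened for a control that stands far from the other 3, a screen that chance passes about 1 time in 20. Dlk1 in control 3, the only Foxp1 fl/fl control, had 24.6 CPM against 8.99 to 11.3 CPM in the other controls. Mirg of the same locus had 20.0 CPM in control 3 against 8.13 to 10.1 CPM. Zdbf2, an imprinted gene outside the main list, had 101 CPM in control 4 against 76.0 to 77.3 CPM in the other controls.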

How the results depend on the processing

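The number of imprinted genes past the threshold was 0 with other scalings, limma, the filter and each control left out. With DESeq2 it was 1, H19 (adjusted p = 0.0192, log2 fold change 1.00). With the replicate block it was 0, but there controls 3 and 4 had no same-numbered partner. Little freedom was left for the spread and 0 of all genes passed, so that 0 says little about the members. Over all genes 26 passed, against 473 with DESeq2 and 0 with the replicate block, and 2 to 96 when each library was left out, fewest without control 2 and most without control 4. DESeq2 also called Kcnq1 (0.91) and Tssc4 (-0.37). Members with an unadjusted p-value under 0.05 numbered 5, where 6.53% of all genes had such a p-value and were higher and 6.50% were lower. With the replicate block such members numbered 8 (17.7% of all genes, both directions together, as in the shares that follow). They numbered 4 without control 1 (8.52% of all genes), 4 without control 2 (8.19%), 10 without control 3 (17.6%) and 4 without control 4 (19.1%). The members' count thus did not follow the share of all genes. Nothing in the labels ties same-numbered libraries to a litter, and deviations of same-numbered libraries correlated at -0.198 and 0.0157. The deviations of the 2 Foxp1cKO-labelled libraries mirror each other, so crossed pairs had to give the opposite signs, 0.198 and -0.0157. These correlations therefore say little about pairing. A block with crossed numbers, added after the data were examined and with little freedom left for the spread, called 1301 genes, 11 of them members, and 12 members had an unadjusted p-value under 0.05, as had 24.9% of all genes. The near-zero fold change of Grb10 turned positive with limma (0.011), with the replicate block (0.0079) and with the crossed block (0.0078), and ran from -0.13 to 0.11 over the left-out libraries. Over those, Mirg ran from -0.30 to 0.44 and Nnat from -0.14 to 0.057, and the differences in log2 ratio from -0.28 to 0.27 for Ube3a to Snrpn, -0.020 to 0.040 for Blcap to Nnat and -0.11 to 0.17 for Asb4 to Peg10. Without the library labelled Foxp1cKO 1, Zdbf2 stood at 0.30 and Ago2 at 0.12. The cause was not tested. The median of all 33 ran from 0.017 to 0.23 over the left-out libraries. That of the paternally expressed genes stayed positive, at 0.077 to 0.38, and that of the maternally expressed genes ran from -0.020 without control 1 to 0.24. The direction of H19, Airn, Kcnq1ot1, Mest and Sgce held in all 13 alternatives. The groups of these 5 did not overlap in CPM, which leaving out a library cannot change. Those alternatives therefore could not turn the direction, and the others used the same libraries, so this gives no added support. Among the members, depth limits Kcnk9 most, with 41 to 171 counts per library. Commd1, outside the main list, had 20 to 105 counts.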
